A study of Mus musculus with 2 samples.

Results

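In mouse megakaryocyte-erythroid progenitors, 1345 accessible regions lay at divergent promoters, where genes on opposite strands start close to each other. They were found by merging overlapping or touching peaks of the conservative list of both libraries on the 21 main chromosomes. Kept were regions with a transcription start site (TSS) of at least 2 protein-coding genes, on opposite strands, inside the region or within 1 kb of its edge. The 1345 divergent regions were 2.91% of all 46200 regions and 10.02% of the 13422 regions near any protein-coding TSS. They were compared with 11959 one-gene regions, which lay near the TSSs of exactly 1 protein-coding gene. Another 118 regions near several genes of 1 strand entered neither class.

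ATAC-seq uses the Tn5 transposase to insert adapters where chromatin is open. The cells, precursors of red cells and platelets, came from adult male C57BL/6J mice, 5 to 6 weeks old, and 50000 of them went into each library. The 2 libraries, labelled biological replicates 1 and 2, form 1 group with no treated or control arm, and they name separate biosamples but 1 donor entry, so separate animals are not stated. Of 22 marker genes, all 6 erythroid ones (Klf1, Epor, Gata1, Hba-a1, Hbb-bs and Tfrc) had a conservative region within 1 kb of a TSS, as did 1 of 4 megakaryocyte genes (Pf4), 1 of 2 progenitor genes (Kit), 1 of 3 B-cell genes (Pax5) and none of the 4 granulocyte and macrophage or 3 T-cell genes. Itga2b, Gp9 and Gata2 were among the markers with no such region. No marker gene was at a divergent region.

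At a divergent promoter, RNA polymerase II starts in both directions from a shared nucleosome-depleted stretch, so that neighbouring genes are transcribed away from each other. Such promoters are typically rich in CpG dinucleotides and poor in TATA boxes. They are known for housekeeping genes of DNA repair, mitochondria, chaperones and histones. Factors often named at them include GABPA of the ETS family, NRF1, YY1, NFY and SP1, while GATA factors are the leading regulators of erythroid and megakaryocyte genes.

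The sequences below show what the stretch between the TSSs looked like. For each motif whose share differed between the classes, up to 8 motifs, the head-to-head member of highest fold was taken whose intervening stretch held the motif and no annotated exon. Each runs 5′ to 3′ on the plus strand of GRCm38 (mm10), from the base after the minus-strand TSS to the base before the plus-strand TSS. Capitals mark the named motif on either strand, and other motifs stay in lower case.
Saxo2-Efl1, chr7:82648529-82648613, GABPA/ETS motif: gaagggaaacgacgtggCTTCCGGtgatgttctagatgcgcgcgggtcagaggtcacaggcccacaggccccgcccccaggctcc
Polh-Xpo5, chr17:46202646-46202781, NRF1 motif: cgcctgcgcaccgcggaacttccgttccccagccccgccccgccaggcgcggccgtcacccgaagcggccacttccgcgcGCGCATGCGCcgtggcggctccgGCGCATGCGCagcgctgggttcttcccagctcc
Idh3g-Ssr4, chrX:73786898-73787027, YY1 motif: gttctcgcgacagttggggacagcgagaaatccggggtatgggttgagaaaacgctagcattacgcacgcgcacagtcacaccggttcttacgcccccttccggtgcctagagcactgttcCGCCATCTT
Slc25a27-Cyp39a1, chr17:43667215-43667424, NFY motif: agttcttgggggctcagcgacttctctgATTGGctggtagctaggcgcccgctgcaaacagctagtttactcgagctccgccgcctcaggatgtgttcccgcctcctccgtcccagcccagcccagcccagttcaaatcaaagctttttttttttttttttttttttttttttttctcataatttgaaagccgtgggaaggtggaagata
Cetn2-Nsdhl, chrX:72918412-72918556, SP1 motif: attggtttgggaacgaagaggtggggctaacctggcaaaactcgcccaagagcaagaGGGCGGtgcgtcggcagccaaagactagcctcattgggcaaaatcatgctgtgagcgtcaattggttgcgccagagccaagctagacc
Tmem209-Ssmem1, chr6:30509784-30509848, ZBTB33 motif: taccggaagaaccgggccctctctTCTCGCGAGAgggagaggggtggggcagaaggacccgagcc
Trmt5-Slc38a6, chr12:73286711-73286778, CRE motif: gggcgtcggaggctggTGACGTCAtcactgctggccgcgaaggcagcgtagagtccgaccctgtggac
Mettl8-Dcaf17, chr2:71055584-71055743, ZNF143 motif: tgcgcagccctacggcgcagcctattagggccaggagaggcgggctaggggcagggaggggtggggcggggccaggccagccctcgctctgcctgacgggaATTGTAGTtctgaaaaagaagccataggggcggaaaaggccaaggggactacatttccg
A stretch with the GATA letters, found in fewer divergent than one-gene regions, was added after the values were seen.
Npc2-Isca2, chr12:84773153-84773250, GATA motif: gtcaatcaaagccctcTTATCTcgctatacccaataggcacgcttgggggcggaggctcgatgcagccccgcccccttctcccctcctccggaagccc

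These stretches lay at regions of high fold, and the Slc25a27-Cyp39a1 stretch ran past the end of its region. The fold is the deposited ratio per peak, read here from its place in the peak layout and its values as signal at the summit over local background. In the order pooled, replicate 1 and replicate 2, the fold was 14.5, 13.8 and 13.3 at Saxo2-Efl1, whose Efl1 encodes a GTPase of ribosome maturation. It was 11.4, 9.74 and 11.6 at Polh-Xpo5, which pairs the translesion DNA polymerase eta with the exporter of precursor microRNAs. In the Polh-Xpo5 stretch the NRF1 motif was matched 4 times, because each of the capital runs holds it on both strands. The fold was 9.44, 8.30 and 9.98 at Idh3g-Ssr4, which pairs a subunit of mitochondrial isocitrate dehydrogenase with a subunit of the translocon-associated complex. At Npc2-Isca2, which pairs a lysosomal cholesterol-binding protein with an iron-sulfur cluster assembly factor, the fold was 10.7, 10.2 and 9.97.

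The word divergent fitted most members but not all. The closest pair of opposite-strand TSSs was head-to-head, with the minus-strand TSS on the left, in 1087 regions, 80.8% (Wilson 95% interval 78.6 to 82.8). The TSSs then lay a median of 123 bp apart (quartiles 66 and 264.5, largest 2053). In 257 regions (19.1%) the plus-strand TSS lay to the left, so the annotated transcripts overlapped at their 5′ ends, with a median of 179 bp between the TSSs. Of these 257 regions, 100 also had another TSS pair that was head-to-head. In 1 region the TSSs fell on the same base. Most regions lay near 2 genes (1303), 41 lay near 3, and 1 lay near 4 (Gm28051, Gon7, Ubr7 and Gm20604, chr12:102757430-102758411, pooled fold 10.4). The members are not all separate promoters: they carried 1176 distinct sets of genes, of which 157 had 2 regions and 6 had 3 or more.

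**Figure D1:**
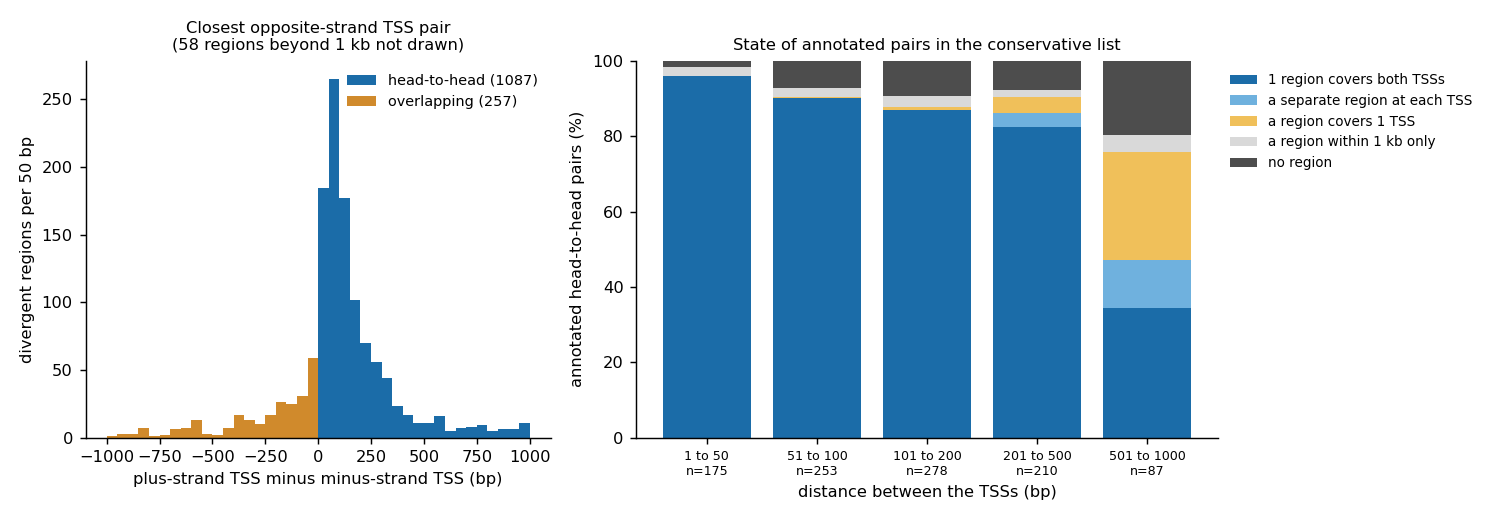
Left, number of divergent regions per 50 bp of signed distance between the closest opposite-strand TSSs, positive where head-to-head; the peak stands at 51 to 100 bp. Right, share of annotated head-to-head pairs in each state of the conservative list by TSS distance, where 1 region covered both TSSs in 96.0% of pairs up to 50 bp apart and 34.5% of pairs over 500 bp apart.

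Annotated pairs were also followed without reference to the peaks. GENCODE M21 held 1003 head-to-head pairs of protein-coding genes with TSSs at most 1 kb apart, made of 1979 genes. Of these genes, 1845 (93.2%, interval 92.0 to 94.2) had a conservative region within 1 kb of a TSS, where 54.5% of all 21853 protein-coding genes had one. Of the 19874 genes in no such pair, 50.6% had one, and the odds ratio was 13.4 (interval 11.2 to 16.0, logistic fit over n = 21853 genes, p = 8.73e-181). A paired gene has a TSS of its partner within 1 kb, so a region at either promoter often counts for both genes. One region covered both TSSs in 841 of the 1003 pairs. The paired share is therefore raised by construction, and the fit took the genes as independent. The libraries gave like values when taken alone, at 90.3% against 43.5% in replicate 1 and 89.1% against 43.8% in replicate 2. The odds ratio was 13.0 with the number of TSSs per gene in the fit. Among genes with a single TSS, 88.6% of 562 paired genes and 38.8% of 7674 others had a region. The 514 genes found in overlapping pairs alone had one in 88.1% of cases. Genes and regions are not replicates, so p-values here and below speak of these libraries alone.

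How the open region sat on the pair differed by distance. One region covered both TSSs of 168 of 175 pairs at 1 to 50 bp (96.0%), of 242 of 278 over 100 and up to 200 bp (87.1%) and of 30 of 87 over 500 bp (34.5%). Over 500 bp, 11 pairs had a separate region at each TSS and 25 had a region over 1 TSS alone. No pair up to 200 bp had a separate region at each TSS. In all, 80 of the 1003 pairs had no conservative region within 1 kb, and 22 had none in any of the 13 deposited peak lists. Of these 22, 13 had named genes on both sides. The closest were Hsf3 and Heph on chromosome X, 79 bp apart, Plcz1 and Capza3 on chromosome 6 (100 bp), Smc1b and Ribc2 on chromosome 15 (114 bp), Lypd4 and Dmrtc2 on chromosome 7 (116 bp), and Asb12 and Pfn5 on chromosome X (117 bp). Plcz1 encodes the sperm phospholipase that activates the egg, Capza3 a germ-cell actin-capping subunit, Smc1b a meiotic cohesin subunit, and Heph a copper-dependent ferroxidase of the gut.

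The divergent regions were somewhat stronger and wider than one-gene regions. Their median pooled fold was 8.11 (quartiles 6.12 and 10.2), against 7.43 (5.37 and 9.91). In replicate 1 the medians were 7.75 and 6.98, and in replicate 2 they were 8.10 and 7.38. The class distributions overlapped almost throughout: the highest divergent fold was 17.2 and the highest one-gene fold 25.1. On the log2 scale the difference was 0.09 ± 0.02 (SE), a ratio of 1.07 (95% interval 1.05 to 1.09; linear fit with HC3 errors over n = 13304 regions, Benjamini-Hochberg adjusted p = 2.42e-09 over 7 fits). With GC content and CpG ratio in the fit the log2 difference was 0.033 (p = 0.032, n = 13304 regions), and over the stronger 50% of regions it was -0.011. Each library showed it alone, with a ratio of 1.08 (1.06 to 1.10) in replicate 1 and 1.07 (1.05 to 1.09) in replicate 2. The median deposited −log10 p was 90.2 against 64.8, and it grows with library depth, which is unknown here.

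The median width was 990 bp against 788 bp, and 79.7% of divergent regions against 67.2% of one-gene regions had 2 or more summits. A wider region reaches more TSSs, so the rule itself uses width, and these values are a description. With log2 width in the fit, the difference in fold was -0.023 on the log2 scale (p = 0.084, n = 13304 regions), so the higher fold did not stand apart from width. When regions were split into 3 equal classes of width, the median fold in the widest, 975 to 3183 bp, was 8.95 for 697 divergent and 8.78 for 3743 one-gene regions. In the narrowest class, 150 to 640 bp, it was 5.13 for 282 divergent and 5.41 for 4145 one-gene regions.

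**Figure D2:**
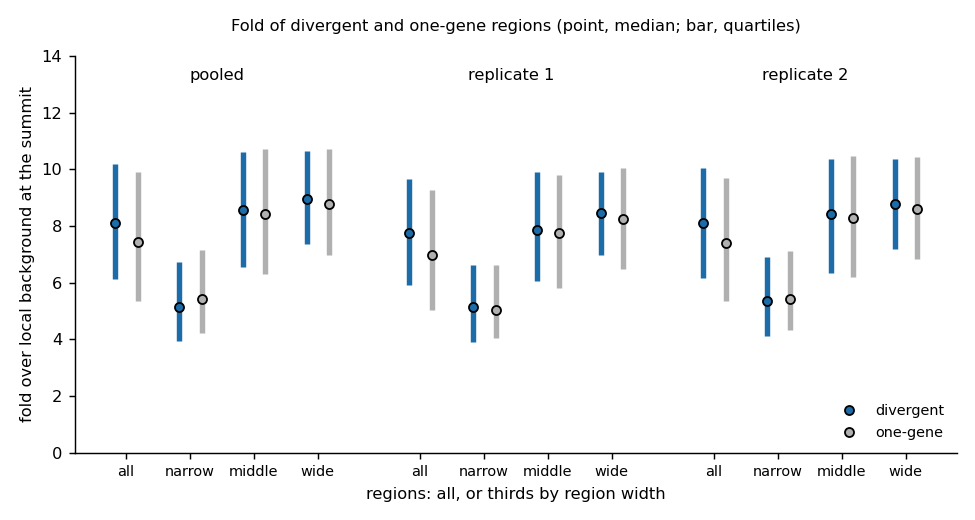
Fold over local background at the strongest summit of each region (linear axis from 0), as median (point) and quartiles (bar), for divergent and one-gene regions, pooled and in each library, over all regions and in 3 classes of width. Pooled medians over all regions were 8.11 and 7.43, and within the widest class they were 8.95 and 8.78.

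Divergent regions recurred more often in the separate lists of the libraries. Of the 1345, 1131 (84.1%, interval 82.0 to 86.0) were overlapped by a region of the IDR-thresholded list of both libraries, where IDR, the irreproducible discovery rate, ranks how well peaks repeat. The share was 72.4% over all promoter regions, 71.0% over one-gene regions and 48.6% over all regions of the conservative list. The odds ratio against one-gene regions was 2.16 (1.85 to 2.51, logistic fit over n = 13304 regions, adjusted p = 5.38e-23). Unlike the fold, this difference held with width in the fit, at a log odds of 0.45, and in every class of width: 48.9% against 41.8%, 89.1% against 82.3% and 95.7% against 91.1%. Between the libraries, members varied little: over 1316 members with a peak in both longer lists, the log2 ratio of replicate 2 to replicate 1 had a median of 0.07 and an SD of 0.17. Of these members, 1 was more than 2-fold higher in replicate 2 and 1 in replicate 1. The 11580 one-gene regions with a peak in both lists varied about as little, with a median of 0.08 and an SD of 0.18. Of them, 5 were more than 2-fold higher in replicate 2 and 6 in replicate 1.

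In close pairs the strongest summit lay near the midpoint. Of the 1087 head-to-head members, 582 (53.5%) had it within 100 bp of the midpoint of the TSSs and 425 (39.1%) within 50 bp. It lay between the TSSs in 539 (49.6%, interval 46.6 to 52.5). That share followed the room between them, from 17.3% of 185 regions with TSSs up to 50 bp apart to 60.1% of 276 over 100 and up to 200 bp and 60.7% of 84 over 500 and up to 1000 bp. The median distance from the midpoint was 51 bp at over 100 and up to 200 bp. It was 363.8 bp at over 500 and up to 1000 bp, where the nearest TSS was a median of 94.5 bp away, and 500 bp for TSSs over 1000 bp apart, with the nearest TSS 85 bp away. The summit was nearer the minus-strand TSS in 534 of the 1087. The region covered both TSSs in 826 (76.0%).

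**Figure D3:**
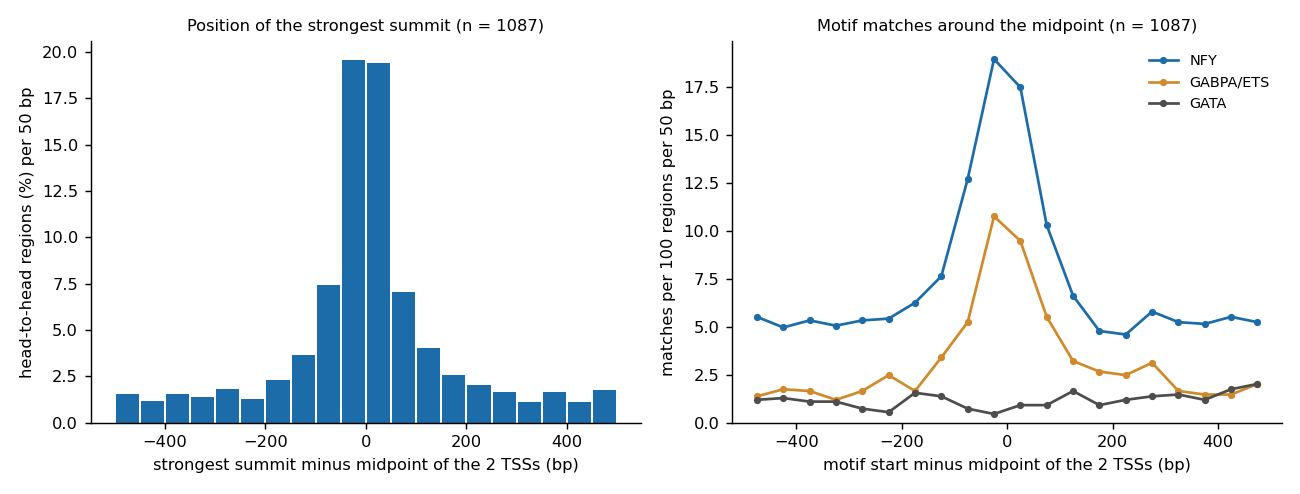
Left, share of the 1087 head-to-head regions with the strongest summit in each 50 bp bin around the midpoint of the TSSs; the bins beside the midpoint hold 19.6% and 19.4%. Right, motif matches per 100 regions in 50 bp bins, where NFY reached 18.9 and GABPA/ETS 10.8 in the bin left of the midpoint and GATA stood at 0.46.

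The region of highest pooled fold was that of Slc25a27 and Cyp39a1 (chr17:43666810-43667411), which encode a mitochondrial uncoupling protein of the brain and an oxysterol hydroxylase of bile acid synthesis. Its fold was 17.2, with 17.3 in replicate 1 and 14.7 in replicate 2. Next came Pld3 with 2310022A10Rik (chr7:27552779-27553547) at 16.4, with 14.8 and 15.7. Zfp169 with A830005F24Rik (chr13:48512727-48513693) had 16.1, with 12.8 in replicate 1 and 16.9 in replicate 2, the widest gap between libraries among the 10 highest. Cetn2 with Nsdhl (chrX:72917945-72918949) had 16.1, with 14.1 and 15.5; they encode a centriole protein and an enzyme of cholesterol synthesis. The 10 highest also held Rnft2 with 2410131K14Rik (15.6), Xrcc4 with Tmem167 (15.3), Armh1 with Tmem53 (15.1), Fam3a with Ikbkg (15.05), Fkbp15 with Slc31a1 (14.8) and Trappc11 with Rwdd4a (14.8). Xrcc4 encodes a subunit of the ligase complex of non-homologous end joining, Ikbkg the regulatory subunit of the kinase that activates NF-kappa B, and Slc31a1 the high-affinity copper transporter. All 10 were head-to-head, in both IDR-thresholded lists and at least 12.76 in each library. The strongest summit of Xrcc4 with Tmem167, at position 90089652, lay to the right of both TSSs (90089082 and 90089123).

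The 5 lowest regions were small side regions that covered neither TSS of their pair. They were 167 to 549 bp wide, and none was in both IDR-thresholded lists. Among them, the pooled fold was 2.44 at Tmed5 with Ccdc18 and 2.59 at Fiz1 with Zfp524 and Gm44973. It was 2.68 at Hist1h2bl with Hist1h2ai and Hist1h3h and 2.79 at Cenpx with Lrrc45. The libraries differed at Tmed5 with Ccdc18: replicate 1 had no peak, and the overlapping peak of replicate 2 had 12.4. Neither library had a peak at the Fiz1 and Cenpx regions, and the Hist1h2bl region had 2.93 and 2.94. Regions that needed a distance over 800 and up to 1000 bp to qualify numbered 68, with a median fold of 5.17. One-gene regions that would have qualified at over 1000 and up to 1200 bp numbered 63, with a median of 4.86.

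Pairs taken as textbook cases of a shared promoter were nearly all listed. Of 18 such pairs, 16 had at least 1 divergent region, and 15 of the 16 had 1 region over both TSSs. The highest was Atm with Npat (chr9:53536401-53537622), the DNA damage kinase beside the coactivator of histone genes, at 10.99 pooled and 10.11 and 10.98 in the libraries. Each fold is that of the strongest summit of the region, which need not lie between the TSSs. Aurka with Cstf1, a mitotic kinase and an RNA cleavage factor, had 9.81. Brca1 with Nbr1 had 9.74, with the summit 688 bp to the right of the midpoint of TSSs 270 bp apart. Prkdc with Mcm4, the DNA-dependent protein kinase and a subunit of the replicative helicase, had 9.69. Sars2 with Mrps12 had 9.46, Tbp with Psmb1 7.57, Ppat with Paics 7.27, Cbx3 with Hnrnpa2b1 6.16, Surf1 with Surf2 5.76 and Hspd1 with Hspe1 5.11. Ppat with Paics was of the overlapping kind. Gart with Son, whose TSSs were 554 bp apart, had a separate region at each TSS, with folds of 6.58 and 8.08. Trp53 with Wrap53 had a region over both TSSs at 3.67, with 3.33 and 3.70 in the libraries, that was not in both IDR-thresholded lists, and a region of 5.19 with its summit 989 bp to the left of the midpoint. Tap1 with Psmb9 had a region of 6.55 over both TSSs, with its summit 362 bp to the left of the midpoint, and a region of 4.33 beside them. Col4a1 with Col4a2, which encode basement membrane collagens, had no region in the conservative list. Ercc1 with Cd3eap had no opposite-strand TSSs within 1 kb of each other, so in this annotation they are not a pair that shares a promoter.

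Gene lists were counted at divergent regions beside all genes. Of all 21853 protein-coding genes, 2348 (10.7%) were at a divergent region. Of 25 erythroid genes 1 was (Epb41, which encodes a protein of the red cell membrane skeleton), although 23 of the 25 had a region near a TSS. The Epb41 region (chr4:132075139-132075674) paired it with Gm10300, its pooled fold was 5.58, and the libraries had 5.29 and 5.58. It was 536 bp wide, and the pair was of the overlapping kind with a signed TSS distance of -595 bp, so it did not cover both TSSs. None of 25 megakaryocyte genes and none of 26 blood transcription factor genes was at a divergent region, while 11 and 22 of them were at one-gene regions. No gene of these 3 lists was in an annotated head-to-head pair. No list here was tested, and all were chosen with earlier results of these data known.

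Of 29 genes of haem and iron handling, 6 (20.7%) were at divergent regions. Uros, which encodes the enzyme that closes the porphyrin ring, shared its region with Bccip (chr7:133708684-133709835). The fold was 7.87, with 7.28 and 7.71 in the libraries. The summit lay 251 bp to the left of the midpoint of the closest TSSs, which were 52 bp apart. It was 1 bp from another annotated TSS. The sequence within 100 bp of that summit, and so outside the stretch between the 2 closest TSSs, held the GATA letters. Urod, the next enzyme of the pathway, paired with Hectd3 (chr4:116994284-116994628), with 6.53 pooled and 6.40 and 6.05. That region was 345 bp wide and the TSSs were 904 bp apart, so it did not cover both. Nfs1, the cysteine desulfurase of iron-sulfur clusters, paired with Romo1 (chr2:156143845-156144893) at 8.64, with 8.74 and 8.06. Iscu, the scaffold on which those clusters are built, paired with Sart3 (chr5:113771567-113772227) at 6.07, with 5.73 and 6.18. Slc11a2, the iron transporter DMT1, paired with Gm5475 at 7.73, with 7.15 and 7.65. Blvrb, a biliverdin reductase, paired with Sptbn4 at 7.06, with 6.15 and 6.65.

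Of 78 mitochondrial ribosome genes, 34 (43.6%) were at a divergent region, led by Mrps27 with Ptcd2 at 13.2, Mrpl44 with Wdfy1 at 12.8, Mrps18c with Helq at 12.3 and Mrpl50 with Zfp189 at 12.2. Of 74 DNA repair genes, 31 (41.9%) were, led by Xrcc4, Xrcc1 with Pinlyp at 14.5, Pms1 with Ormdl1 and Gm28778 at 13.98 and Fancb with Mospd2 at 13.8. Of 94 oxidative phosphorylation genes, 35 (37.2%) were, led by Ndufb3 at 14.2, Uqcrb at 13.2, Sdhc at 12.9 and Ndufv3 at 12.7. The mitochondrial import genes had 9 of 25, led by Timm17b at 11.8. These genes were nearly all accessible, so the shares were also read among genes with a region: 43.6%, 41.9%, 40.2% and 37.5% for these 4 lists, 45.1% for histone genes, 40.6% for chaperones, 4.35% for erythroid genes and 19.7% for all genes. The arrangement of the genes alone already differed. In the same order, 30.8%, 40.5%, 30.9% and 28.0% of the 4 lists were in an annotated head-to-head pair, against 9.06% of all genes. All of these paired genes of the 4 lists had a region.

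Chaperones had 13 of 33 (39.4%), led by Hspa14 and Tcp1, both at 10.7. Mediator and RNA polymerase genes had 16 of 58 (27.6%), led by Polr3f at 13.4, and tRNA synthetases 10 of 37 (27.0%), led by Rars2 at 13.0. Cell cycle and replication genes had 14 of 55 (25.5%), led by Rpa1 at 13.5, proteasome genes 11 of 50 (22.0%), led by Psma2 at 12.1, and cytosolic ribosome genes 14 of 83 (16.9%), led by Rpl15 at 11.98. Zinc finger genes had 31 of 394 (7.87%), led by Zfp169 and by Zfp944 with Zfp758 at 13.97, and solute carriers 29 of 371 (7.82%), led by Slc25a27 and Slc31a1; both shares were below that of all genes. Keratins had 0 of 53 and olfactory receptors 1 of 1134 (Olfr56). The 1 entry of the collagen list, Col4a3bp, encodes a ceramide transfer protein and not a collagen.

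Histone genes, which are clustered in pairs of opposite strand, had 32 of 82 (39.0%) at divergent regions. Their median fold there was 6.37, against 8.73 for all genes at divergent regions. The highest were Hist1h2bh with Hist1h3f (chr13:23543273-23543690) at 8.17, with 8.11 and 7.28, and Hist1h2ac with Hist1h2bc (chr13:23683837-23684289) at 7.95, with 7.73 and 7.18. Histone genes are near-identical copies, so how the authors' alignment placed shared reads makes these values uncertain.

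In 49 regions both genes of the closest pair were on a list, and in 33 they were on the same list: 25 regions of histone pairs, 4 of zinc finger pairs, 2 of chaperone pairs, 1 of mitochondrial ribosome genes and 1 of tRNA synthetases. The histone regions include several that serve the same pair. Mrpl46 with Mrps11, a large and a small subunit protein of the mitochondrial ribosome, stood 30 bp apart (chr7:78782608-78783742), with a fold of 11.3 pooled and 10.2 and 11.3 in the libraries. Hars with Hars2, the cytosolic and mitochondrial histidine tRNA synthetases, stood 26 bp apart, with 11.7 pooled and 10.01 and 11.87. Other pairs joined lists, such as Orc3 with Rars2 at 13.0, Mrpl32 with Psma2 at 12.1, Ndufaf2 with Ercc8 at 10.8 and Sdhd with Timm8b at 8.09. These pairs were chosen after their values were seen.

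**Figure D4:**
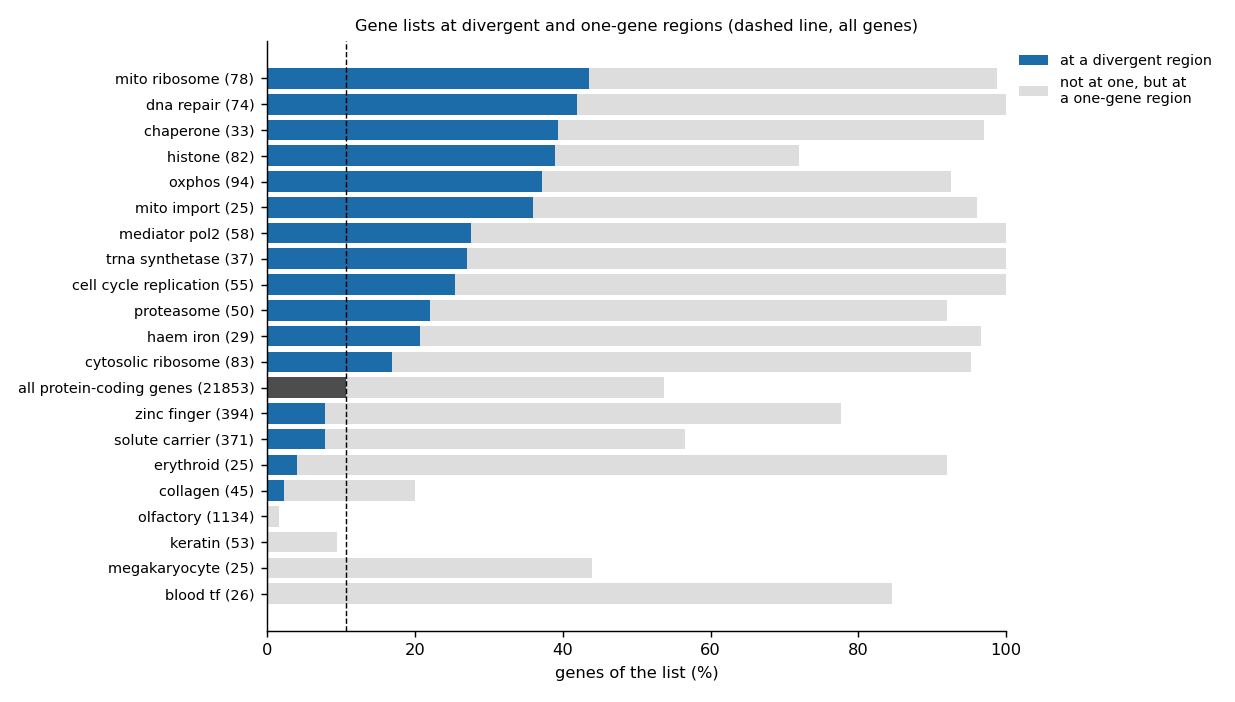
Share of the genes of each list (number of genes in brackets) at a divergent region (dark bars), and at a one-gene region but no divergent one (light bars); the dashed line marks all protein-coding genes at 10.7%. Mitochondrial ribosome genes reach 43.6%, erythroid genes 4%, and megakaryocyte and blood transcription factor genes 0.

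The sequence around the strongest summit differed between the classes in CpG content. The window of 100 bp to each side had a median GC content of 63.2% in both classes (difference 0.29 points, 95% interval -0.15 to 0.72, adjusted p = 0.20, n = 13304 regions). With log2 width in the fit the GC difference was -0.54 points (p = 0.0137, n = 13304 regions). The median ratio of observed to expected CpG was 0.846 against 0.743, with a mean difference of 0.12 (0.10 to 0.13, adjusted p = 5.52e-64, n = 13304 regions). With log2 width in the fit the CpG difference was 0.084. More divergent than one-gene summits lay within 100 bp of a TSS (75.5% against 53.9%). Among those the median CpG ratio was 0.88 against 0.81. Over 100 and up to 300 bp it was 0.78 against 0.77, and beyond 300 bp 0.51 against 0.48. These values by distance were not tested.

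Motif matches were counted as exact letters on either strand in the same window, and none of the 12 motifs contains another. A match is a description and not a bound site. GABPA/ETS (CCGGAAG) had the widest gap above one-gene regions: 322 of 1345 divergent regions (23.9%, interval 21.7 to 26.3) held it, against 12.9% of one-gene and 14.01% of all promoter regions. The odds ratio was 2.13 (1.86 to 2.44, logistic fit over n = 13304 regions, Benjamini-Hochberg adjusted p = 1.57e-26 over 12 motifs). NFY (CCAAT) was in 37.5% against 31.5% (all promoter regions 32.1%), an odds ratio of 1.30 (1.16 to 1.47, adjusted p = 3.41e-05, n = 13304). SP1 (GGGCGG) was in 60.0% against 54.4% (all 55.0%).

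The GATA motif, spelled AGATAA and read by the erythroid and megakaryocyte regulators, went the other way. It was in 44 divergent regions (3.27%, interval 2.45 to 4.36) against 7.62% of one-gene and 7.14% of all promoter regions, an odds ratio of 0.41 (0.30 to 0.56, adjusted p = 8.44e-08, n = 13304). Summits of divergent regions lay nearer to a TSS, with 75.5% of them within 100 bp against 53.9% in one-gene regions. Within 100 bp of a TSS, GATA was in 1.77% (1.12 to 2.79) of 1015 divergent and 3.90% (3.45 to 4.40) of 6443 one-gene regions, and GABPA/ETS in 27.5% and 18.6%. Over 100 and up to 300 bp the GATA shares were close. They were 5.03% (2.67 to 9.28) of 179 divergent and 5.44% (4.6 to 6.43) of 2370 one-gene regions. Beyond 300 bp, GATA was in 11.3% (7.15 to 17.3) of 151 and 16.9% (15.6 to 18.2) of 3146, where the intervals overlap. The GATA intervals of the classes thus stood apart within 100 bp of a TSS. Farther out, with 179 and 151 divergent regions, overlapping intervals cannot show that the shares were equal. The classes were not tested by distance. The 44 members with the letters include Fam219a with Dnaic1 at a fold of 13.4, Helq with Mrps18c at 12.3, Gla with Hnrnph2 at 11.4 and Uros with Bccip.

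Of the rarer motifs, YY1 (AAGATGGCG) was in 3.64% against 2.07% (all promoter regions 2.23%), ZBTB33 (TCTCGCGA) in 2.97% against 1.61% (1.73%), ZNF143 (ACTACAAT) in 1.41% against 0.769% (0.827%), CRE (TGACGTCA) in 3.94% against 2.85% (2.96%) and NRF1 (GCGCATGCG) in 3.05% against 2.15% (2.25%). TRE (TGACTCA) was in 1.49% against 2.62% (2.53%). All 6 passed, with adjusted p from 0.00064 for YY1 to 0.043 for NRF1. E-box (CACGTG, 9.29% against 8.04%, all 8.17%, adjusted p = 0.12) and TATA box (TATAAA, 2.83% against 3.21%, all 3.22%, adjusted p = 0.44, n = 13304) did not pass. Of the 12 motifs 10 passed, and with GC content and CpG ratio in the fit 3 did, with 5 passing with width in the fit. GABPA/ETS, NFY and GATA passed under all 12 alternative settings tried.

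**Figure D5:**
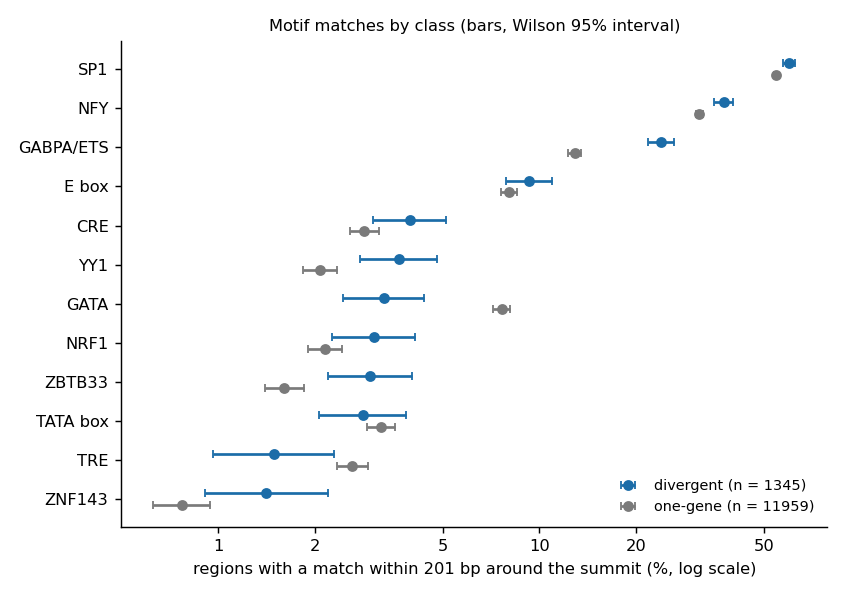
Share of divergent and one-gene regions with an exact match to each motif within 100 bp of the strongest summit (log axis, bars are Wilson 95% intervals). GABPA/ETS stands at 23.9% against 12.9% and GATA at 3.27% against 7.62%.

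The shares of the GABPA/ETS and NFY motifs stood at different levels by distance between the TSSs, and their matches were densest at the midpoint. GABPA/ETS was in 33.0% (28.8 to 37.4) of 452 head-to-head regions with TSSs up to 100 bp apart, in 23.2% up to 200 bp, 14.9% up to 500 bp and 11.6% (7.26 to 18) of 138 beyond that. NFY stood at 28.3% (24.4 to 32.6), 45.7%, 49.8% and 45.7% in the same classes, lowest in the closest pairs. These shares by distance were not tested. SP1 was between 58.8% and 64.9%. Within 500 bp of the midpoint, 48.8% of 699 GABPA/ETS matches, 40.2% of 1608 NFY matches and 63.8% of 69 CRE matches lay within 100 bp of it, against 12.9% of 256 GATA matches. CRE had the highest and GATA the lowest share of the 12 motifs. The share was 53.5% for NRF1, 52.1% for ZBTB33, 32.5% for SP1 and 26.5% for TATA box. No share for evenly spread matches was computed. Members with the NFY letters had a median fold of 9.35 against 7.58 without, and members with the GABPA/ETS letters 8.96 against 7.90. The gaps were not particular to members: one-gene regions had 8.75 against 6.94 for NFY and 9.09 against 7.21 for GABPA/ETS. These medians were not tested.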

How the data were processed

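ATAC-seq peak lists of 2 libraries were used. Per the deposited read-me texts, the authors made the lists on mm10 from filtered alignments. The deposited ratio column is a fold per peak (read from its place and values) and the deposited −log10 p column its significance; both are the authors' values, not scaled between libraries, and are used to describe and rank peaks within a list. Which aligner and peak caller were used, and whether reads were shifted for Tn5, is not given in the sources used here. Read counts were not used, so depth is unknown.

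Peaks on 21 chromosomes were merged; each region kept its strongest peak by −log10 p. A library's fold is that of its strongest overlapping peak in its longer (pseudoreplicated) list, absent for 23 and 15 divergent regions. Genes were 21853 protein-coding genes of GENCODE M21 with 54361 TSSs. Classes were compared by linear or logistic fits with HC3 errors (statsmodels 0.14.6), with p-values adjusted by Benjamini-Hochberg over 7 fits or 12 motifs at 0.05. Wilson 95% intervals cover counting error only. The fits were tested on simulated data.

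Named genes were the 10 highest and 5 lowest regions by fold, textbook pairs, blood and haem list members, up to 4 members of other lists, the 5 closest pairs without any region and the region of 4 genes; further names were picked with their values in view. Some genes that this rule names are not reported here. The members and lists were chosen with earlier results of these data known. Alternatives covered the window, annotation, peak list, width, composition and each library.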

Additional observations from a re-analysis of the deposited data

How the results depend on the processing

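Of 78 alternative values for the comparisons, 64 were labelled the same as the main value, and of 144 for single motifs 111 were. For a fit this meant an unchanged direction and side of the threshold. For a count it meant a change within a set fold, and for a share a value inside the main interval. A count of 7 motifs passing, against 10 in the main setting, was therefore labelled the same. With log2 width in the fit the log2 difference in fold was -0.023 pooled, 0.0015 in replicate 1 and -0.0071 in replicate 2, that in GC content was -0.54 points, the log odds of TATA box was 0.0021, and 5 motifs passed. With GC content and CpG ratio in the fit 3 motifs passed. Over the stronger 50% of regions the log2 difference in fold was -0.011. Over regions that cover their TSSs, chosen after seeing the data, 5 motifs passed, the GC difference was -0.38 points and 54.8% of summits lay between the TSSs. That share was 53.0% with a 500 bp window and 53.1% with basic transcripts, where the GC difference was -0.23 points; with named genes alone 83.2% of pairs were head-to-head. The cause was not tested. Taking each library alone gave 1196 to 1209 divergent regions, a log2 difference in fold of 0.10 to 0.11 and a log odds of access for paired genes of 2.35 to 2.49. No paired analysis was possible because the 2 libraries form 1 group. Unknown depth limits what a region missing from a list can show.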

Other observations

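Some one-gene regions had an annotated non-coding TSS on the other strand. Of the 11959, 1349 (11.3%) had a TSS of a long non-coding gene on the other strand within 1 kb. Their values lay between the other classes in the motif shares and CpG ratio. GABPA/ETS letters were in 15.3% (13.4 to 17.3) of them, against 12.6% (11.95 to 13.21) of the 10610 one-gene regions with no such TSS and 23.9% of divergent regions. GATA letters were in 5.12% (4.06 to 6.42), against 7.94% (7.44 to 8.47) and 3.27%. The median CpG ratio was 0.806, against 0.734 and 0.846. The median pooled fold was 7.51, against 7.42 and 8.11, with 7.10 and 7.38 in replicates 1 and 2. These values were added after the others were seen and were not tested.

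GABPA/ETS and NFY letters were both present in 7.51% (6.22 to 9.04) of divergent and 3.23% (2.93 to 3.56) of one-gene regions. Counted singly, GABPA/ETS was in 23.9% and 12.9% of these classes and NFY in 37.5% and 31.5%. The joint share that these single shares would give was not computed, so joint use is not shown. At least 1 of GABPA/ETS, NRF1, YY1, NFY, ZBTB33 and ZNF143 was in 59.1% (56.5 to 61.7) of divergent and 44.9% (44.0 to 45.7) of one-gene regions. A match counts letters and not bound sites, and these shares were not tested.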
